A study of Mus musculus with 80 samples.

Results

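Timp1, Timp2, Timp3 and Timp4 are the 4 mouse genes for the tissue inhibitors of metalloproteinases. They were chosen by name as the whole gene family, and they are described here among 18820 genes measured in the heart. Each was read by 1 probe set of its own on a Mouse Gene 1.0 ST array: Timp1 by 10598976, Timp2 by 10393559, Timp3 by 10365482 and Timp4 by 10547022. The hearts came from 80 male C57BL/6J mice of about 10 weeks of age, with 1 array per animal. All of them, the baseline animals included, had been fed at night only. A baseline group (n = 10) was killed at lights-on. One course of animals was then left to sleep undisturbed (n = 9 at each of 3, 6, 9 and 12 h). In a parallel course gentle handling was used to keep animals awake, beginning at lights-on (n = 8, 9, 9 and 8 at the same times). Sleep was judged from movement, and undisturbed animals were awake for part of the time. The study holds it very likely that some deprived animals slept briefly, to an extent it could not measure. Values are log2 intensities, so that 1 unit is a doubling of the signal. They rank a gene across animals, not 1 gene against another.

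TIMPs are small secreted proteins that occupy the zinc-binding active site of matrix metalloproteinases, the enzymes that cut collagen, other matrix proteins and many cell surface proteins. Timp1 is a soluble inhibitor that is weak against the membrane-type enzymes, Timp2 also helps Mmp14 to activate the Mmp2 zymogen, Timp3 is held in the extracellular matrix and also inhibits ADAM and ADAMTS proteases, and Timp4 is the member best known for its abundance in the heart. The balance of these inhibitors and their targets sets the turnover of the cardiac matrix, and mice without Timp3 develop a dilated heart.

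Over all times, Timp4, Timp1 and Timp3 were higher in deprived than in sleeping hearts, while Timp2 did not pass the test. Timp4 differed most, and Timp1 and Timp3 were not tested against each other. Timp4 and Timp3 also had rising slopes on hours from baseline in both states. Under deprivation Timp4 was already 1.07 above baseline at 3 h and was 1.67 above it at 12 h. None of its changes between successive times from 3 to 12 h of deprivation was called. Timp1 was instead below baseline at the late times of sleep and was not called against baseline under deprivation. Changes from early to late times cannot be told apart from the runs of title numbers described below.

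The letters just upstream of Timp3 and Timp4, the members with a rising slope from baseline in both states, are given below. They are the 250 bases before each RefSeq gene start (build GRCm38.p6), each 5′ to 3′ on the strand of its gene. Capitals mark a match to any of 8 motifs searched on both strands, none of which overlapped: the E-box CACGTG, the AP-1 element TGANTCA, the glucocorticoid half-site AGAACA, the GC box GGGCGG, the CCAAT box CCAAT, the TATA box TATAAA, the D-box TTANGTAA and the ROR half-site AGGTCA.
Timp3, chr10:86300162-86300411, + strand: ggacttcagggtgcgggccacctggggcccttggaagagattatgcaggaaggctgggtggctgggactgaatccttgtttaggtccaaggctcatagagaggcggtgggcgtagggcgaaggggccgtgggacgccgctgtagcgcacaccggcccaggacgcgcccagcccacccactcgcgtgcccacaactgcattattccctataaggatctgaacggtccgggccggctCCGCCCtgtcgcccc
Timp4, chr6:115252206-115252455, - strand: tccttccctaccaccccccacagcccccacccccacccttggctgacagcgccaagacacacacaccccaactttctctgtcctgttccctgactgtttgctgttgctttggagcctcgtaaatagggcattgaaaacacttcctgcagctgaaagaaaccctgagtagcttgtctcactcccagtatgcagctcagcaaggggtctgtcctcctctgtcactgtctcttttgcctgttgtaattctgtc
The Timp3 stretch held 1 GC box, read on the other strand, and the Timp4 stretch held none of the 8 motifs in these letters. A GC box was present in 32.7% of 32851 mouse promoters of the same length, and the E-box in 6.02%, AP-1 in 6.75%, the glucocorticoid half-site in 16.1%, CCAAT in 33.8%, TATA in 12.4%, the D-box in 2.06% and the ROR half-site in 14.0%. The pair differed in composition. Timp3 had 18 CpG dinucleotides and 65.6% G and C, while Timp4 had 2 CpG and 53.6%, against a median of 6 CpG and 52.4% over all of these promoters. The array did not measure anything at these sequences.

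Facts of the whole data set bear on how the values were read. Arrays correlated with the others at a mean of 0.984 to 0.992, and 5 arrays lay apart at the low end: 1 sleeping and 1 deprived animal at 3 h, 1 deprived at 6 h, 1 sleeping at 9 h and 1 deprived at 12 h. Leaving them out ended 1 call of a Timp gene, which is given beside it. The sample titles carry 1 unbroken series of numbers, which was divided into 4 runs where the order of the groups starts over. The labels do not give a meaning to the numbers. Runs 1 and 2 hold the 9 and 12 h animals, run 3 holds all of the baseline and part of the 3 and 6 h animals, and run 4 holds the rest of the 3 and 6 h animals. A change from the early to the late times, the slopes and late differences from baseline included, thus cannot be told apart from the runs, and an early difference from baseline mixes 2 runs, whereas both states are present in every run. The heart label held: 8 cardiomyocyte markers averaged 12.8 at baseline. In whole tissue, fewer cells of a type and less RNA per cell cannot be told apart.

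**Figure D1:**
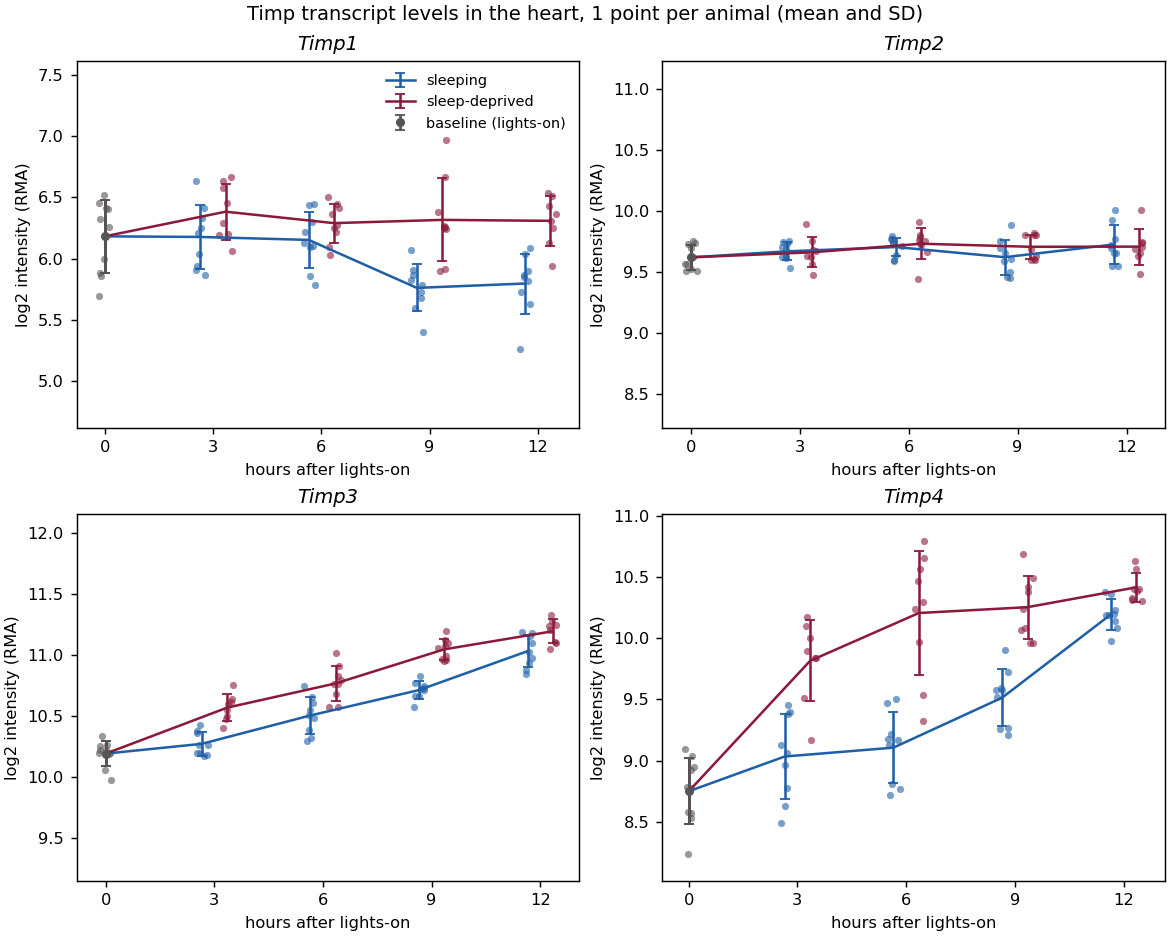
Level of each Timp gene (log2 intensity, vertical axis, the same span in each panel) against hours after lights-on, with 1 point per animal and lines and bars for mean and SD; baseline is grey, sleeping blue and deprived red. Timp4 separates the states most at 6 h and the states come close again at 12 h, whereas the Timp2 group means lie between 9.62 and 9.73.

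Timp4, the inhibitor best known from the heart, had the largest state difference of the 4 genes over all times. At baseline its level ranged from 8.23 to 9.10 with a median of 8.78. After 3 h it was 8.49 to 9.46 (median 9.06) in sleeping animals and 9.17 to 10.18 (median 9.87) in deprived animals. After 6 h it was 8.71 to 9.50 (median 9.17) in sleep and 9.32 to 10.80 (median 10.30) in deprivation. Most deprived animals stood above every sleeping animal at both times, 7 of 8 at 3 h and 8 of 9 at 6 h, although the ranges overlapped. At 9 h the level was 9.21 to 9.91 (median 9.57) in sleep and 9.96 to 10.69 (median 10.24) in deprivation, and the ranges no longer overlapped. At 12 h it was 9.98 to 10.38 (median 10.19) in sleep and 10.31 to 10.63 (median 10.39) in deprivation, and the groups overlapped once more, with every sleeping animal above the highest of 9 h.

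The state difference of Timp4 (deprived minus sleeping, log2) was 0.78 ± 0.14 (SE) at 3 h, 1.10 ± 0.14 at 6 h, 0.74 ± 0.14 at 9 h and 0.22 ± 0.14 at 12 h, the value at 6 h being a 2.15-fold higher signal. In limma, with Benjamini-Hochberg adjustment over all 35556 probe sets and a false discovery rate of 1%, the adjusted p was 1.50e-04, 1.99e-08 and 1.22e-04 at 3, 6 and 9 h. At 12 h it was 0.402, while the exact two-sided permutation test of that single value gave p = 0.00152 with 8 of 8 deprived animals above the sleeping mean. When the 3 h animals were fitted alone the adjusted p at 3 h was 0.0142. Pooled over the times, Timp4 was 0.72 ± 0.11 higher in deprivation (limma adjusted p = 8.21e-07), with 34 of 34 deprived animals above the sleeping mean of their own time. Within the single runs of title numbers the 3, 6 and 9 h differences were all positive, from 0.65 to 1.19, and at 12 h they were 0.36 and 0.025. These comparisons of 3 to 5 animals a side each called at most 1 of 35556 probe sets. They therefore cannot decide the call of a Timp gene.

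**Figure D2:**
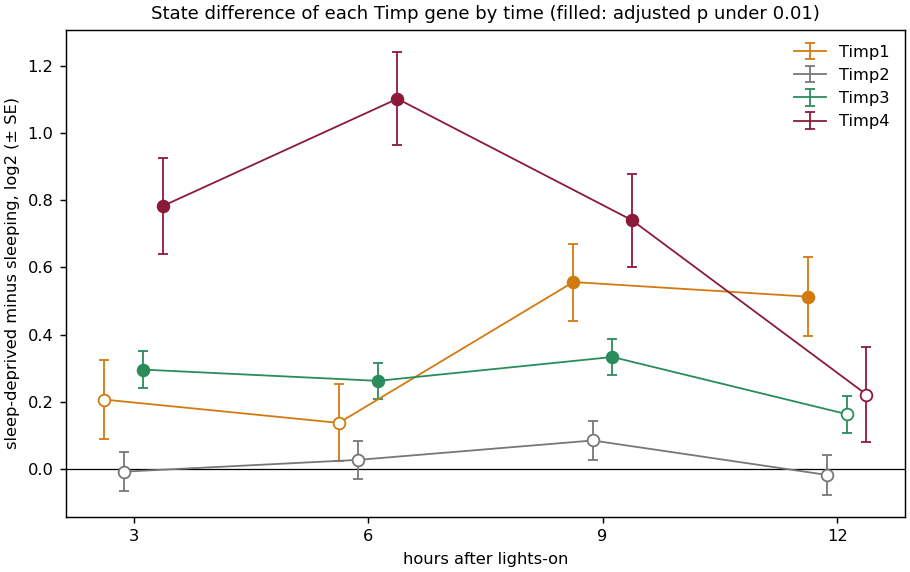
Difference between deprived and sleeping animals of the same time (log2, vertical axis, bars SE from limma) against hours after lights-on for the 4 Timp genes; filled points passed an adjusted p of 0.01. Timp4 peaks at 1.10 at 6 h and is 0.22 at 12 h, while Timp1 passes at 9 and 12 h.

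Whether the size of the state difference itself changed with time was tested by the interaction of state and time, which 0.371% of all probe sets passed. No Timp gene passed at 1% (2 of 4 had an unadjusted p under 0.05), and the limma adjusted p was 0.0394 for Timp4, 0.201 for Timp1, 0.443 for Timp3 and 0.777 for Timp2. The interaction takes all times together. The narrowing of the Timp4 difference at 12 h was not tested on its own.

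Timp3, the matrix-bound inhibitor, showed a smaller difference. It ranged from 9.98 to 10.34 (median 10.21) at baseline. At 3 h the level was 10.18 to 10.43 (median 10.27) in sleep and 10.41 to 10.76 (median 10.57) in deprivation. At 6 h it was 10.29 to 10.74 (median 10.51) and 10.57 to 11.01 (median 10.76). The ranges touched at both times, with 7 of 8 and 6 of 9 deprived animals above every sleeping animal. At 9 h the level was 10.57 to 10.83 (median 10.72) in sleep and 10.95 to 11.197 (median 11.06) in deprivation, without overlap. At 12 h it was 10.84 to 11.19 (median 11.03) and 11.05 to 11.33 (median 11.22), with overlap. Complete separation at 9 h with the deprived animals higher, as in Timp3 and Timp4, was found in 0.309% of all probe sets.

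The state difference of Timp3 was 0.30 ± 0.055 at 3 h, 0.26 ± 0.054 at 6 h, 0.33 ± 0.054 at 9 h and 0.16 ± 0.055 at 12 h, with limma adjusted p of 2.49e-04, 5.31e-04, 1.03e-05 and 0.0549. Fitted alone, the 6 h animals gave an adjusted p of 0.0375. The pooled difference was 0.26 ± 0.067 (limma adjusted p = 0.00302), again with 34 of 34 deprived animals above the sleeping mean of their time, which held for 0.211% of all probe sets. This pooled model left time of day in the error, and the call was lost without the 6 h animals (0.27, adjusted p = 0.0289) and without the 9 h animals (0.24, adjusted p = 0.0797). Within single runs the difference was 0.14 to 0.41 at 3, 6 and 9 h and 0.25 and 0.054 at 12 h, always positive. These small comparisons cannot decide the call, since each called at most 1 of all probe sets.

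Timp1, the soluble inhibitor, passed the test of state at 9 and 12 h and not at 3 and 6 h. The interaction of state and time was not called for this gene. Timp1 ranged from 5.69 to 6.52 (median 6.29) at baseline. At 3 h the level was 5.86 to 6.63 (median 6.21) in sleep and 6.06 to 6.67 (median 6.37) in deprivation, and at 6 h it was 5.79 to 6.45 (median 6.13) and 6.03 to 6.50 (median 6.28). These ranges lay largely over each other. At 9 h the level was 5.40 to 6.07 (median 5.78) in sleep and 5.89 to 6.97 (median 6.26) in deprivation. At 12 h it was 5.26 to 6.08 (median 5.85) and 5.93 to 6.54 (median 6.34). At both late times 7 deprived animals stood above every sleeping animal, and the ranges still overlapped.

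The state difference of Timp1 was 0.21 ± 0.12 at 3 h and 0.14 ± 0.11 at 6 h (limma adjusted p = 0.374 and 0.624), then 0.56 ± 0.11 at 9 h and 0.51 ± 0.12 at 12 h (adjusted p = 5.68e-04 and 0.00256). Fitted alone, the late times gave adjusted p of 0.0137 and 0.011. The pooled difference was 0.35 ± 0.063 (limma adjusted p = 2.25e-05), with 31 of 34 deprived animals above the sleeping mean of their time. Runs 3 and 4 gave differences of 0.21 and 0.17 for the 3 h animals and 0.068 and 0.22 for the 6 h animals. Runs 1 and 2 gave 0.50 and 0.63 for the 9 h animals and 0.46 and 0.61 for the 12 h animals. The fits behind those values each called at most 1 of all probe sets, so they cannot decide the call of Timp1.

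Markers of other cells also differed between the groups, and their correlations with the Timp genes over the 80 arrays are given as a description of arrays that share these groups. The mean level of 10 endothelial markers was 9.66 at baseline, 9.34 in sleep and 9.55 in deprivation at 12 h, with r = 0.60 for Timp1, -0.54 for Timp3 and -0.39 for Timp4. Over all times 3 of the 10 were called higher in deprivation and none lower, beside 3.43% and 4.94% of all probe sets. The level of 10 macrophage and monocyte markers, of which 3 were called higher and none lower, was 7.77 in deprivation and 7.64 in sleep at 3 h. Its r was 0.39 for Timp1 and 0.41 for Timp2. For the level of 9 fibroblast markers r was 0.25 for Timp1, 0.37 for Timp2, -0.34 for Timp3 and -0.41 for Timp4.

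The level of 6 adipocyte markers was 6.80 at baseline and 7.86 at 12 h of sleep. At 6 h it was 6.86 in sleep and 7.50 in deprivation, and at 12 h of deprivation it was 6.985, below the sleeping level of that time. Its r was 0.45 for Timp2, 0.35 for Timp3, 0.28 for Timp4 and -0.15 for Timp1. None of the 6 was called for state over all times in limma, beside 8.38% of all probe sets. At 12 h none was called either, and 5 of the 6 had an unadjusted p under 0.05. Over sleep 4 rose, where 17.6% of all probe sets were called and 2926 of 35556 rose. The level of 8 smooth muscle and pericyte markers was 9.29 at baseline, 9.39 in sleep and 9.56 in deprivation at 9 h. Its r was 0.46 for Timp3, 0.35 for Timp2 and 0.32 for Timp4. The level of 7 lymphocyte markers at 12 h was 5.35 in sleep and 4.59 in deprivation. Its r was -0.25 for Timp1, 0.25 for Timp2, 0.11 for Timp3 and 0.076 for Timp4. At 12 h 3 of the 7 were called lower in deprivation, beside 3.13% of all probe sets called at that time. The part of all these cell markers in the results was not tested.

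Lung epithelium markers reached a mean level of 10.1 in 1 deprived animal at 9 h, against 8.27 in the next animal of that group, and this animal also had the highest Timp1 level of its group. Without it, a comparison added after the data were seen, the Timp1 difference at 9 h was 0.47 (limma adjusted p = 0.00386), and those of Timp3 and Timp4 were 0.33 and 0.76.

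Timp2, the partner of Mmp14, was the flat member. Its group means ran from 9.62 ± 0.10 (SD, n = 10) at baseline to 9.73 at 6 h of deprivation. The state difference was -0.0078 ± 0.058 at 3 h, 0.027 ± 0.057 at 6 h, 0.085 ± 0.057 at 9 h and -0.018 ± 0.058 at 12 h, and the pooled difference was 0.023 ± 0.029 (limma adjusted p = 0.71), with 20 of 34 deprived animals above the sleeping mean. In all, 3 of the 4 Timp genes were called higher in deprivation over all times, beside 8.38% of probe sets called and 3.43% called higher. At single times the calls were 2, 2, 3 and 1 of 4, beside 1.59%, 2.58%, 3.31% and 3.13% of all probe sets called at 3, 6, 9 and 12 h.

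The sizes of the pooled differences were compared between members within each array, with 3 pairs and raw p-values from two-sided permutation tests of 100000 resamples, the states being permuted within times. The state difference of Timp4 exceeded that of Timp1 by 0.36 (permutation p = 0.00127), that of Timp3 by 0.45 and that of Timp2 by 0.69 (permutation p = 1e-05 for both, the smallest these resamples can give). Each exceeded what the animals' spread gave under permutation. Timp1 had a mean level of 6.15 over the arrays, and Timp4 one of 9.68. Whether probe sets of such different levels measure differences on the same scale was not tested. The same permutation of single genes gave 1e-05 for Timp1, Timp3 and Timp4 and 0.46 for Timp2.

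Against the baseline animals, Timp4 was 1.07, 1.46, 1.51 and 1.67 above baseline at 3, 6, 9 and 12 h of deprivation, all called, the smallest of the 4 adjusted p-values in limma being 1.68e-16. In sleep it was 0.28 above at 3 h and 0.36 at 6 h (adjusted p = 0.335 and 0.148), and then 0.77 at 9 h and 1.45 at 12 h (adjusted p = 1.34e-05 and 1.98e-14). The deprived animals of 3 h thus had a mean of 9.82, between the sleeping animals of 9 h (9.51) and 12 h (10.20). The shares of probe sets called against baseline were 1.54%, 4.44%, 6.61% and 9.75% in deprivation and 0.16%, 1.54%, 8.43% and 11.8% in sleep. All 8 comparisons share the baseline animals.

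Timp3 was above baseline by 0.38, 0.57, 0.85 and 1.001 in deprivation and by 0.31, 0.52 and 0.84 at 6, 9 and 12 h of sleep, all called, while the 0.080 at 3 h of sleep was not (limma adjusted p = 0.522). Within run 3, which holds the baseline, Timp4 at 6 h was 0.46 above it in sleep and 1.49 in deprivation, and Timp3 was 0.41 and 0.56 above it. Timp1 in sleep at 6 h was 0.12 above baseline in that run, against -0.029 over both runs. Timp1 was 0.42 below baseline at 9 h and 0.39 below at 12 h of sleep, written as differences of -0.42 and -0.39 (adjusted p = 0.00472 and 0.00809). The 9 h call was lost without the arrays that lay apart (-0.38, adjusted p = 0.019). In deprivation Timp1 differed from baseline by 0.11 to 0.20 and was not called at any time (0 of 4 with an unadjusted p under 0.05), and Timp2 was called at none of the 8 (1 with an unadjusted p under 0.05).

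Of the steps between successive times from 3 to 12 h of sleep, only the last was called for Timp4. Its step from 6 to 9 h of sleep, which is tied to the runs, was 0.41 ± 0.14 (limma adjusted p = 0.0569). The steps were not tested against each other. From 9 to 12 h of sleep, a step within runs, Timp4 rose by 0.68 ± 0.14 (limma adjusted p = 7.57e-04) and Timp3 by 0.32 ± 0.054 (adjusted p = 3.06e-05), in a comparison where 1.33% of probe sets were called. Among the steps between 3 and 12 h of deprivation the only called one of a member was that of Timp3 from 6 to 9 h (0.28, adjusted p = 9.15e-04), which is the step tied to the runs and at which 0.506% of probe sets were called. The fall of Timp1 from 6 to 9 h of sleep was -0.39 (adjusted p = 0.0268) and did not pass, at a step where 1.77% of probe sets were called.

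As slopes on hours from baseline, Timp4 rose by 0.11 ± 0.010 per h in sleep and 0.13 ± 0.015 per h in deprivation, and Timp3 by 0.070 ± 0.0043 and 0.084 ± 0.0042 per h. The limma adjusted p was 1.87e-12 and 1.47e-09 for Timp4 and 7.28e-18 and 1.06e-19 for Timp3. The Timp1 slope was -0.039 ± 0.0087 per h in sleep (adjusted p = 4.76e-04) and 0.0073 ± 0.0088 per h in deprivation (adjusted p = 0.665). Timp2 passed in neither (0.0056 and 0.0077 per h). Slopes were called in 17.6% of all probe sets in sleep and 10.2% in deprivation.

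These calls held under other settings with exceptions at the ends of the course. The Timp1 slope in sleep was -0.042 per h with an adjusted p of 0.0167 without the 12 h animals, and the Timp4 slope in deprivation was 0.061 per h with an adjusted p of 0.0176 without baseline. Whether the slopes themselves differed between the states was tested over 3 to 12 h with an intercept and a slope for each state, a model chosen after the data were seen. No Timp gene passed in limma (2 of 4 had an unadjusted p under 0.05), where 0.177% of probe sets did. The slope over deprivation minus that over sleep was 0.045 ± 0.017 per h for Timp1 (adjusted p = 0.183) and -0.069 ± 0.023 per h for Timp4 (adjusted p = 0.107).

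**Figure D3:**
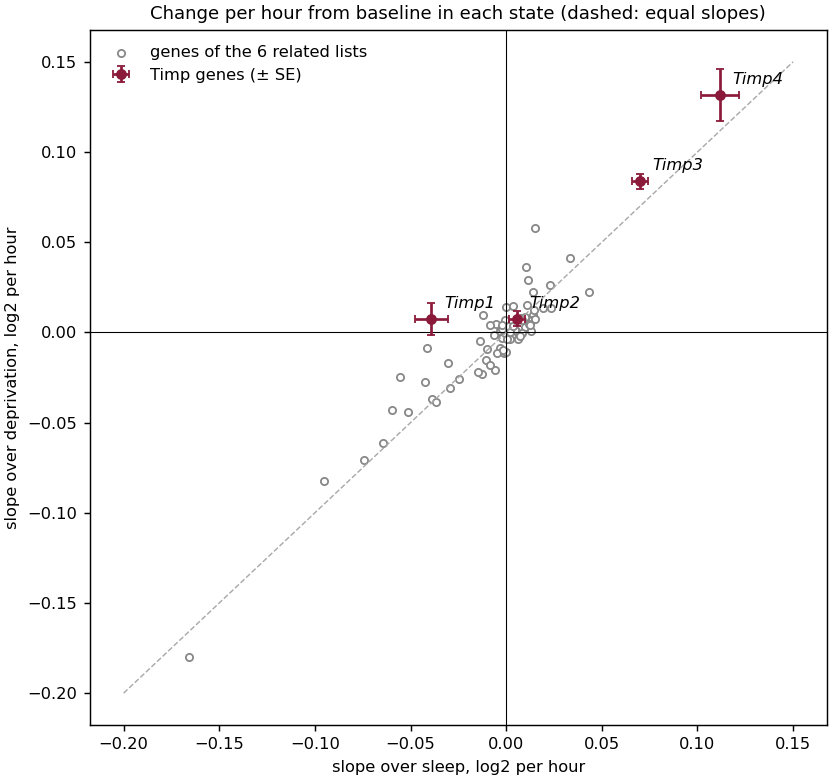
Slope over deprivation against slope over sleep (log2 per hour, limma) for the 4 Timp genes (red, bars SE) and the genes of the 6 related lists (open circles); the dashed line marks equal slopes. Timp3 and Timp4 lie at the upper right, and Timp1 is at -0.039 in sleep and near 0 in deprivation.

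Sorted by mean level, the 9 groups of Timp4 ran from baseline through sleep at 3, 6 and 9 h, deprivation at 3 h, sleep at 12 h and then deprivation at 6, 9 and 12 h. No neighbouring pair in that order differed by the limma test at 1%, although the ends lay 1.67 apart. For Timp3 the order was baseline, sleep at 3 and 6 h, deprivation at 3 h, sleep at 9 h, deprivation at 6 h, sleep at 12 h and deprivation at 9 and 12 h. Its single called gap was the 0.26 between deprivation at 6 h and sleep at 12 h (adjusted p = 1.91e-04). For Timp1 the sleeping groups of 9 and 12 h were lowest and the 4 deprived groups highest, with no called gap between neighbours, and the Timp2 order spanned 0.11 in all (adjusted p = 0.216 between its ends).

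No change in the spread of the members among animals over sleep was called. Bartlett's test over baseline and the 4 sleeping groups gave adjusted p of 0.934, 0.482, 0.677 and 0.485 for Timp1 to Timp4. The call needed the Brown-Forsythe test too, and 0.458% of all probe sets passed both. The SD of Timp4 was 0.12 at 12 h in both states and reached 0.51 at 6 h of deprivation, a group that this test did not include.

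The members did not form 1 pattern. Over the 80 arrays Timp3 and Timp4 correlated at r = 0.84, and at 0.31 once each animal was taken as its deviation from its group mean. Timp1 and Timp4 correlated at 0.042, and Timp2 with the others at 0.16 to 0.31. These values describe arrays that share groups and normalisation.

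The genes whose levels were most like Timp4 over the 80 arrays were Map3k6, a stress-activated protein kinase (r = 0.93), Zbtb16, a zinc finger transcription factor (0.92), Slc43a3, a purine transporter (0.92), Ifi205 (0.91), Slc10a6, a transporter of sulphated steroids (0.90), Sult1a1, a sulphotransferase (0.90), Fam107a (0.90) and Herpud1, a gene of the endoplasmic reticulum stress response (0.90). Within groups these fell to between 0.49 for Ifi205 and 0.69 for Fam107a. The most opposite were Prox1, a homeobox transcription factor (-0.85), Fam78a and Vstm4 (-0.84 each) and Dusp10, a phosphatase of stress kinases (-0.84). For Timp3 they were Rhobtb1 (0.93), the clock gene Per2 (0.93) and Slc43a3 (0.93), and for Timp1 Npdc1 (0.76), Sema3f (0.76) and Rapgef1 (0.74). The closest to Timp2 was Aebp1, a matrix-associated carboxypeptidase-like protein (0.65), before Slit3 and Gas6 (0.62 each).

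In the enzyme families that include targets of TIMPs most genes were not called for state, and the same held for all probe sets (8.38% called). Of 23 matrix metalloproteinases 20 were measured, of which 2 were higher and 1 lower in deprivation over all times, beside 3.43% and 4.94% of all probe sets, with a median difference of -0.0013 against -0.0029 over all genes. The 3 were Mmp3, stromelysin (0.25 ± 0.058, limma adjusted p = 8.56e-04), Mmp19 (0.21 ± 0.045, adjusted p = 3.30e-04) and Mmp11 (-0.17 ± 0.045, adjusted p = 0.00401). Over sleep 4 fell and none rose, and over deprivation 3 fell and none rose, where 9.32% and 6.09% of all probe sets fell. The steepest was Mmp14, the membrane-type enzyme that works with Timp2, at -0.064 per h in sleep and -0.062 per h in deprivation.

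Of the 9 ADAM sheddases, a family with targets of Timp3 among its members, Adam15 was higher in deprivation (0.13 ± 0.029, limma adjusted p = 5.88e-04) and the others were not called. Which of the 9 a TIMP inhibits was not tested. Of all probe sets 3.43% were called higher and 4.94% lower. The median of the 9 was -0.017. Adam17, the enzyme that releases TNF, had a pooled difference of -0.022 (adjusted p = 0.744) and fell over both courses, by -0.013 and -0.023 per h. Adam19 had the steepest slope, -0.17 per h in sleep and -0.18 per h in deprivation. None of the 18 measured ADAMTS proteases of 19 was called for state over all times in limma, beside 8.38% of all probe sets. Of the 18, 8 had an unadjusted p under 0.05, and the median was -0.029. At single times Adamts5 was lower in deprivation at 3 h (-0.33, adjusted p = 5.92e-04) and Adamts3 at 6 h (-0.35, adjusted p = 8.38e-07), both named after their values were seen. At these times 1.59% and 2.58% of all probe sets were called. Adamts4, an aggrecan-cutting enzyme, fell by 0.095 and 0.082 on the log2 scale per h in sleep and deprivation.

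Among 14 of 16 other inhibitors and genes of the plasminogen system, 4 were higher in deprivation and none lower, beside 3.43% and 4.94% of all probe sets, with a median of 0.034. They were Thbs1, a matrix glycoprotein (0.37 ± 0.060, limma adjusted p = 2.77e-06), Spock2, a proteoglycan (0.34 ± 0.080, adjusted p = 0.00117), Serpinh1, the collagen chaperone that is a serpin by sequence (0.24 ± 0.061, adjusted p = 0.0025), and Plaur, the urokinase receptor (0.18 ± 0.048, adjusted p = 0.00449). Reck, a membrane-anchored inhibitor of metalloproteinases, was not called for state (-0.071, adjusted p = 0.297) and rose over sleep by 0.023 per h. Of 10 binding partners of TIMPs only Igf1r was called (0.13 ± 0.032, adjusted p = 0.00279), and the median was -0.0019. Kdr, the VEGF receptor to which Timp3 binds, fell by 0.074 and 0.071 on the log2 scale per h without a state difference that passed.

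**Figure D4:**
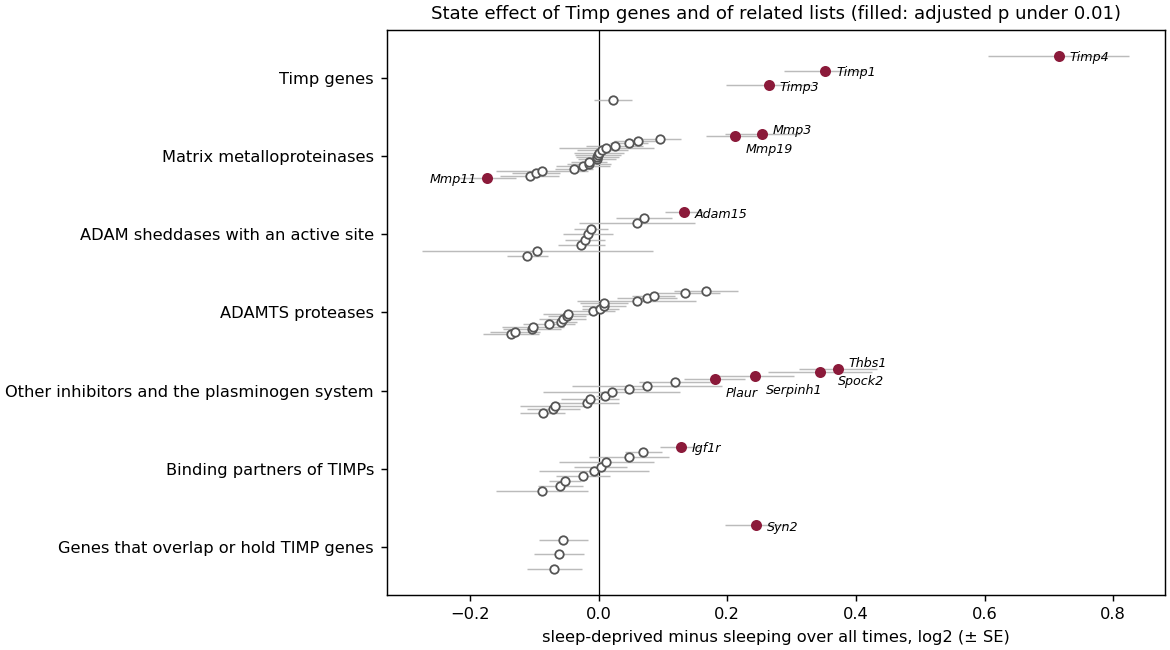
Difference between deprived and sleeping animals over all times (log2, horizontal axis, bars SE from limma) for the Timp genes and the measured genes of 6 related lists, 1 point per gene; filled points passed an adjusted p of 0.01 and are named. Timp4 at 0.72 lies beyond every gene of the related lists shown, the highest of which is Thbs1 at 0.37.

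By RefSeq's gene spans, Timp1 lies inside Syn1, Timp3 inside Syn3 and Timp4 inside Syn2, genes for synaptic vesicle proteins, and Cep295nl lies inside Timp2. Syn2 had a pooled difference of 0.25 ± 0.050 (limma adjusted p = 1.56e-04) and a slope of 0.036 per h in deprivation (adjusted p = 2.70e-05), as its inner gene Timp4 did in the same direction. Over sleep 1 of these 4 genes that overlap a Timp gene was called, beside 17.6% of all probe sets. Their slopes in sleep were 2.96e-04 to 0.023 per h, where that of Timp4 was 0.11 per h. Syn3 was not called for state (-0.069, adjusted p = 0.334) and rose over both courses, by 0.023 and 0.026 per h. Syn1 passed in none of these. Whether the Syn2 and Syn3 probe sets also read RNA of the Timp genes was not tested.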

How the data were processed

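The values are log2 intensities, which the authors obtained by reading all heart arrays with R/oligo and normalising them by RMA (robust multi-array average). The deposited table had lost its decimal points. They were put back after the first digit, or after the second where a string began with 10 to 13 (173799 values), and 1 ambiguous value was read as the rest of its row. Of 35556 probe sets 21218 had 1 gene symbol, and the highest mean stood for a symbol. No renormalisation was applied.

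limma 3.58.1 (R 4.3.3) was fitted to all probe sets with Benjamini-Hochberg adjustment and called at 1%: state on 70 arrays, 9 group means on 80, and hours on 46 or 44. The R/maanova program of the study was not used. Permutation tests, Bartlett's and Brown-Forsythe tests used scipy 1.17.1, numpy 2.4.6 and pandas 2.3.3 (python 3.11.15), and figures matplotlib 3.10.9. The fits were tested on simulated data. Named genes were the 4 members, called genes of the lists (at most 6 a direction in long lists), and those of highest or lowest Pearson correlation with a member. Genes named for their slopes, their overlap or their role were chosen after the values were seen. Members, lists and motifs were chosen with earlier results of these data known, and the motif set was revised after the Timp promoters had been read. Alternatives changed the normalisation, filter, weights, shrinkage, runs, times and arrays used. The array number limits the precision. Gene names are those of the platform annotation, and promoters are from RefSeq, in which all 4 members matched.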

Additional observations from a re-analysis of the deposited data

How the results depend on the processing

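Of 678 comparisons of a result with an alternative, 616 kept direction and side of the threshold, 31 kept the direction and lost the call, 1 gained it, 18 counts moved and 12 changed sign, none of which had been called. The array number limits what single runs (3 to 5 animals a side at a time) can show, and an alternative with fewer animals has less power by construction. Fits of 1 run at 1 time each called at most 1 of 35556 probe sets. A call lost in those fits thus does not bear on the Timp genes. Causes were not tested otherwise. No paired analysis was possible because the labels number the animals in 1 series and give no number shared between groups.

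State over all times lost its limma call in single runs for Timp1 (0.14, adjusted p = 0.432, and 0.20, 0.388, in runs 3 and 4), Timp3 (0.23, 0.0628, and 0.21, 0.0328, in runs 2 and 3) and Timp4 (0.40, 0.153, and 1.06, 0.014, in runs 2 and 4), so that 1 gene was called in each of runs 2, 3 and 4. Timp3 lost it without the 6 h (0.27, 0.0289) or 9 h animals (0.24, 0.0797). Timp2 changed sign in runs 2 and 3 (-0.075 and -0.028).

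At 3 h, runs 3 and 4 gave 0.27 and 0.31 for Timp3 and 0.65 and 0.94 for Timp4 (adjusted p 0.12 to 0.418), with 0 genes called, and the animals fitted alone 0.78 for Timp4 (0.0142) and 1 gene. At 6 h they gave 0.14 and 0.41 for Timp3 and 1.03 and 1.19 for Timp4 (0.101 to 0.521), with 0 genes called, and 0.26 for Timp3 fitted alone (0.0375) with 1 gene. At 9 h, runs 1 and 2 gave 0.50 and 0.63 for Timp1, 0.30 and 0.37 for Timp3 and 0.76 and 0.71 for Timp4 (0.0286 to 0.159), with 0 genes called, and 0.56 for Timp1 fitted alone (0.0137). At 12 h they gave 0.46 and 0.61 for Timp1 (0.208 and 0.0911), and 0.51 fitted alone (0.011), with 0 genes called in each. Timp4 at 12 h (0.22) was the 1 result that gained a call. It did so by the exact permutation test (p = 0.00152), a raw p not adjusted over all probe sets, where the limma adjusted p was 0.402.

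Timp2 also changed sign at 3 h (0.0022 with centred arrays, 0.0050 in run 4), 6 h (-0.028 in run 3), 12 h (0.016 centred, 0.13 in run 1) and against baseline at 9 h of sleep (-0.021 centred, -0.016 with array weights). Between the states, the uncalled difference of slopes changed sign for Timp2 without the arrays that lay apart (-0.0034) and for Timp3 without 12 h (0.0065). No animal stood apart from its group by Dixon's criterion in 36 groups of member values.

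The slope of Timp1 over sleep lost its call without 12 h (-0.042, adjusted p = 0.0167) and that of Timp4 over deprivation without baseline (0.061, 0.0176), which left 1 gene called, and the uncalled Timp1 slope over deprivation turned to -0.0064. Called ADAM sheddases numbered 2 with time as a factor, and called ADAMTS proteases 2 with time as a factor and 1 with centred arrays.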
